A study of Homo sapiens with 4 samples.

Results

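The mitochondrial ribosomal protein genes are 77 of the 20037 protein-coding genes in the RefSeq gene table for GRCh38.p14. They were chosen by symbol alone, as MRPL or MRPS followed by a number, with a trailing A, B or C allowed for MRPS. There were 49 MRPL genes, named for the large subunit, and 28 MRPS genes, named for the small subunit, spread over 21 chromosomes. The rule uses no measured value, although the set was proposed with earlier results of these data known. Around them lay 79 of the 41880 peaks of IRF3 ChIP replicate 1 and 82 of the 41666 peaks of IRF3 ChIP replicate 2, counted where the summit was within 1 kb of an end of a gene.

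The study mapped where the transcription factor IRF3 sits on chromatin in MM1.S, an established human multiple myeloma cell line, which is a malignant plasma cell model. The cells were untreated, and the 4 libraries were 2 IRF3 ChIP libraries and 2 input libraries of sheared chromatin, each kind numbered 1 and 2. Peaks had been called for each ChIP library alone against the input of the same number, and MACS2 counted 38568845 ChIP and 58025919 input tags for replicate 1, against 46474586 and 60348415 for replicate 2. Whether the 2 libraries of a kind came from separate cultures is not stated in the labels, and differences between them may be technical. All 7 plasma cell and myeloma marker genes looked up (IRF4, XBP1, PRDM1, SDC1, TNFRSF17, CD38 and MZB1) had a peak at a gene end in both lists, as did 50.0% of all protein-coding genes. A peak does not measure expression, and expression was not analysed here.

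Mitochondria keep a small genome of their own, and its few messages for subunits of the respiratory chain are translated inside the organelle by a dedicated ribosome, the mitoribosome. Its ribosomal RNAs are made in the organelle, but all of its proteins are encoded in the nucleus, made in the cytosol and imported, so their genes are ordinary nuclear genes at scattered loci. Some of these proteins have relatives in every ribosome, some are shared with bacteria, and some occur only in mitochondria. IRF3 is best known as the factor that switches on type I interferon and antiviral genes after nucleic acids are sensed in the cytosol, where it binds interferon-stimulated response elements. Mitoribosomal protein genes are not classical interferon targets, and they are usually described as housekeeping genes with CpG-rich promoters.

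IRF3 peaks stood at nearly all of these genes. A peak at a gene end in both lists was found for 73 of the 77 members (94.8%), while 10012 of 20037 protein-coding genes had one (50.0%). Each list alone also gave 73 members, and the share of all protein-coding genes was 51.4% in replicate 1 and 55.2% in replicate 2. No member had a peak in a single list. The 28 MRPS genes all had a peak in both lists, and the 4 members without one were all MRPL genes, of which 45 of 49 had a peak. Where only peaks with a fold enrichment of 5 or more in each list were kept, 56 members remained, or 72.7%, beside 28.6% of all protein-coding genes. With a −log10 q of 10 or more in each list the members' share was 92.2% (71 genes), and that of all protein-coding genes was 44.0%. The comparison group holds genes of every level of activity, and no test was made, because the members are a fixed list in a single condition.

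Fold enrichment, the authors' own value for each peak, compares the stacked ChIP fragments at a summit with the local background from the input. For each member the strongest peak at a gene end was used. The members' median was 6.43-fold in replicate 1 (quartiles 5.22 and 8.05) and 8.98-fold in replicate 2 (quartiles 6.80 and 11.5), and that of all protein-coding genes with peaks in both lists was 5.56-fold in replicate 1 (quartiles 4.07 and 7.55) and 8.50-fold in replicate 2 (quartiles 6.0 and 12). Member peaks were thus of middling height. The range was wide, from 2.79 to 22 in replicate 1 and from 2.62 to 36.3 in replicate 2. Fold enrichment was higher in replicate 2 for 65 of 73 members (89.0%), as it was for 89.8% of all such genes, so the lists differ in scale, and ranks within each list were used to order genes. The strength percentile used below takes the worse of a gene's 2 ranks and places it among the 10012 genes with peaks in both lists, 100 being the strongest. Its median was 64.1 over the members (quartiles 44.6 and 79.0), and 45 of 73 fell between the quartiles of all such genes.

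**Figure D1:**
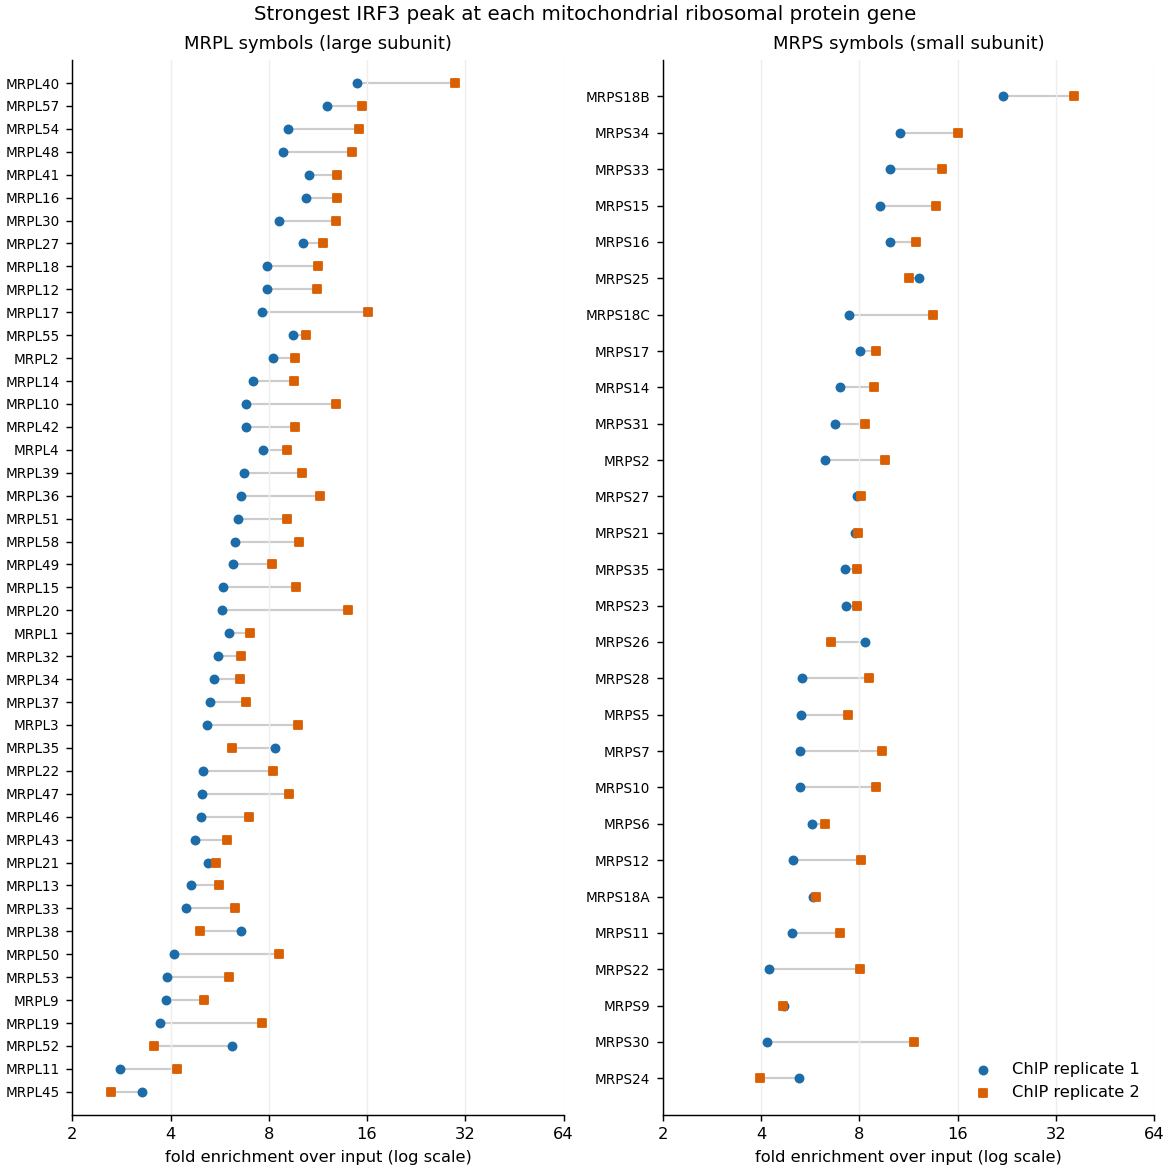
Fold enrichment over input (log scale) of the strongest IRF3 peak at each of the 73 members with a peak in both lists, MRPL genes on the left and MRPS genes on the right, ordered by strength percentile with the strongest at the top. Circles are ChIP replicate 1 and squares ChIP replicate 2; MRPS18B and MRPL40 stand apart at the strong end, and MRPL45 and MRPL11 lie at the weak end.

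The replicates placed the peaks at the same sites. The strongest peaks of the 2 lists overlapped at 71 of 73 members, and their summits lay within 100 bp of each other at 61 members, with a median gap of 43.0 bp, beside 37.0 bp for all protein-coding genes. The exceptions were MRPL2 and MRPS9, which had a peak at each end of the gene in both lists. At MRPL2, a protein of the large subunit core, the peak at one end had folds of 8.26 in replicate 1 and 6.52 in replicate 2, and the peak at the other end 5.36 in replicate 1 and 9.59 in replicate 2. Those ends lie near CUL7 and KLC4, so which end was strongest changed with the list. At MRPS9, a small subunit protein, the start had 4.42 in replicate 1 and 4.67 in replicate 2, and the far end 4.71 in replicate 1 and 3.83 in replicate 2. The order of the members was less stable than the positions: the Spearman correlation of fold enrichment between the lists was 0.684 over 73 members and 0.761 over 10012 genes, where genes are not independent replicates and each list shares its library and depth. MRPS30 moved most, with 4.15-fold in replicate 1 and 11.7-fold in replicate 2, and MRPL52 moved furthest the other way, with 6.17-fold in replicate 1 and 3.56-fold in replicate 2.

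Among MRPS genes the highest value stood at MRPS18B, 1 of 3 related genes whose proteins descend from bacterial ribosomal protein S18. Its peak reached 22-fold in replicate 1 and 36.3-fold in replicate 2, a strength percentile of 99.3, and spanned 3810 bp in replicate 1 and 3714 bp in replicate 2. Over all members the peaks had a median length of 806 bp in replicate 1 and of 889 bp in replicate 2. The MRPS18B gene occupies chromosome 6, 30617840 to 30626392, but the summit lay 645 bp upstream of it in replicate 1 and 646 bp in replicate 2, only 48 and 49 bp from the end of PPP1R10, a regulatory subunit gene of protein phosphatase 1. The other genes of the trio had lower peaks: MRPS18C, the closest bacterial S18 counterpart by its structural name bS18m, had 7.43-fold in replicate 1 and 13.5-fold in replicate 2. MRPS18A, which carries the large-subunit name mL66 in the table despite its symbol, had 5.74-fold in replicate 1 and 5.90-fold in replicate 2.

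MRPS34, a small subunit protein needed for the stability of that subunit, was next among MRPS genes with 10.6-fold in replicate 1 and 16.1-fold in replicate 2. MRPS33 had 9.89-fold in replicate 1 and 14.3-fold in replicate 2, and MRPS15 9.28-fold in replicate 1 and 13.7-fold in replicate 2. MRPS16, a bacterial-type protein whose loss impairs respiratory chain assembly in patients, had 9.91-fold in replicate 1 and 11.9-fold in replicate 2. These 4 genes had strength percentiles from 85.3 to 93.4. Nearer the members' median were MRPS27, an RNA-binding pentatricopeptide repeat protein (7.87-fold in replicate 1, 8.07-fold in replicate 2), MRPS35 (7.21-fold in replicate 1, 7.88-fold in replicate 2) and MRPS2 (6.28-fold in replicate 1, 9.57-fold in replicate 2). MRPS12, the counterpart of the bacterial protein that lines the decoding centre, had 5.01-fold in replicate 1 and 8.10-fold in replicate 2. MRPS22, another gene of inherited respiratory chain deficiency, had 4.21-fold in replicate 1 and 8.02-fold in replicate 2. The weakest MRPS gene was MRPS24 at 5.22-fold in replicate 1 and 3.98-fold in replicate 2.

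Among MRPL genes MRPL40 led with 14.9-fold in replicate 1 and 29.8-fold in replicate 2, a percentile of 97.6, with the summit 299 bp upstream of the start in replicate 1 and 365 bp in replicate 2. MRPL57 followed with 12-fold in replicate 1 and 15.4-fold in replicate 2. MRPL54 had 9.18-fold in replicate 1 and 15.1-fold in replicate 2, and MRPL48 8.87-fold in replicate 1 and 14.4-fold in replicate 2. All 4 encode mitochondrion-specific proteins by their structural names. MRPL41 had 10.6-fold in replicate 1 and 13.0-fold in replicate 2. MRPL16, a conserved protein that helps to position transfer RNA, had 10.4-fold in replicate 1 and 12.9-fold in replicate 2. MRPL30 had 8.58-fold in replicate 1 and 12.9-fold in replicate 2. With the 5 MRPS genes above, these 7 made up the 12 strongest members.

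MRPL12, a protein of the stalk that recruits translation factors, which in the human organelle also binds the mitochondrial RNA polymerase, had 7.91-fold in replicate 1 and 11.3-fold in replicate 2, a percentile of 83.0. MRPL10, which anchors that stalk, was added after its values were seen and had 6.81-fold in replicate 1 and 12.9-fold in replicate 2, a percentile of 73.0. MRPL11, at the base of the same stalk, was the second weakest member by percentile, with 2.79-fold in replicate 1, the lowest of any member there, and 4.19-fold in replicate 2, a percentile of 6.49. MRPL3, a conserved protein near the peptidyl transferase centre, had 5.16-fold in replicate 1 and 9.86-fold in replicate 2, and MRPL37 had 5.27-fold in replicate 1 and 6.80-fold in replicate 2. The lowest percentile was that of MRPL45, a protein near the exit tunnel that helps to hold the ribosome to the inner membrane, with 3.26-fold in replicate 1 and 2.62-fold in replicate 2, a percentile of 2.84; its fold was the lowest of the members in replicate 2 only. MRPL19, the remaining one of the 5 lowest, had 3.72-fold in replicate 1 and 7.64-fold in replicate 2.

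Grouped by symbol, the MRPL genes had median folds of 6.30 in replicate 1 and 9.20 in replicate 2. The MRPS genes had 6.84 in replicate 1 and 8.42 in replicate 2. The MRPS group includes 2 genes with large-subunit structural names, MRPS18A (mL66) and MRPS30 (mL65). Their interquartile ranges overlapped, and the order of the medians differed between the lists. Grouped by the origin that the structural names in the table give, a peak in both lists was found at 24 of 26 genes for proteins universal to ribosomes, 17 of 18 for proteins shared with bacteria and 30 of 31 for mitochondrion-specific proteins. Their median percentiles were 57.4 for universal, 58.2 for bacterial and 65.4 for mitochondrion-specific proteins. The 5 members in the strongest 10% of all genes all carry the mitochondrion-specific prefix in their structural names, out of 30 such genes with peaks, and came from both subunits. The strongest of them, MRPS18B, is nevertheless a relative of bacterial S18, and its summit was nearer to PPP1R10 than to MRPS18B. The quartiles of the 3 groups overlapped (45.4 and 73.6, 47.3 and 79.6, and 41.4 and 87.2).

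The 4 members with no peak at an end were of different kinds. At MRPL24 and MRPL44 a peak stood at the start given by the RefSeq promoter table, which lies inside the gene span. The MRPL24 summit was 96 bp downstream of that start in both lists, with folds of 6.55 in replicate 1 and 7.92 in replicate 2. The MRPL44 summit was 3 bp downstream in replicate 1 and 53 bp in replicate 2, with folds of 6.06 and 5.54 in that order; MRPL44, whose protein has a ribonuclease III-like fold, is a gene of infantile cardiomyopathy. These genes were also the 2 members just outside the distance limit: the nearest summit to an end of MRPL24 was 1724 bp away in replicate 1 and 1215 bp in replicate 2, and to an end of MRPL44 1819 bp and 1757 bp away. MRPL28 and MRPL23 had no peak nearby. The nearest summit was 11630 bp from MRPL28 in replicate 1 and 11288 bp in replicate 2, and 94289 bp from MRPL23 in replicate 1 and 93425 bp in replicate 2; MRPL23 lies in the imprinted region of chromosome 11, and the table gave it no start.

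Just inside the limit were MRPL34 and MRPS2. At MRPL34 the peak shared by both lists stood 814 bp from the far end of the gene in replicate 1 and 904 bp in replicate 2, and a small peak of 2.78-fold at the start was called in replicate 1 only. At MRPS2 the summit was 826 bp from the span end in replicate 1 and 796 bp in replicate 2, but only 109 and 79 bp from the table start. Counted from the start in place of either end, 67 of the 69 members with a known start had a peak within 1 kb in both lists (97.1%), beside 51.9% of 15842 protein-coding genes. The exceptions were MRPL28 and MRPL34.

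Most summits lay just downstream of the start. The median position was 60.0 bp downstream in replicate 1 and 77.0 bp in replicate 2 over the 67 members, beside 69.0 bp and 94.0 bp over all 8218 genes with such peaks. Summits within 250 bp of the start made up 88.1% in replicate 1 and 85.1% in replicate 2 among the members, and 76.1% and 74.1% among all genes. A smaller group lay upstream, 18 of 67 in replicate 1 and 23 in replicate 2. Among all 8218 genes, 2700 lay upstream in replicate 1 and 2431 in replicate 2. Downstream summits made up 73.1% of members in replicate 1 and 65.7% in replicate 2, beside 67.1% and 70.4% of all genes. In the list with the higher fold, the 100 bp just before the start held the summits of 3 of 67 members (4.48%) and of 1.89% of all genes.

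**Figure D2:**
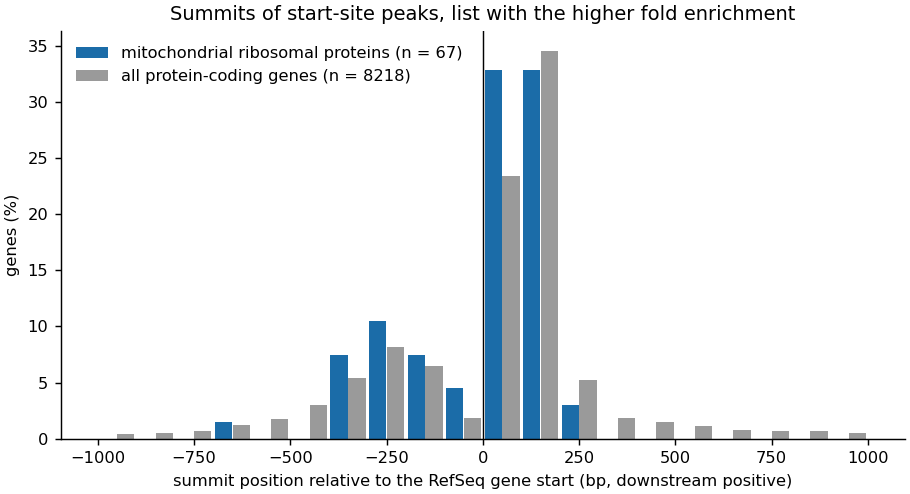
Position of the summit relative to the RefSeq gene start (bp, downstream positive), in bins of 100 bp, as a percent of 67 mitochondrial ribosomal protein genes (blue) and of all 8218 protein-coding genes (grey) with a start-site peak in both lists. Both groups have a main mode in the 200 bp after the start and a smaller mode at 100 to 400 bp before it.

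Many members share their promoter region with another gene. Of the 69 members with a known start, 18 (26.1%) had a protein-coding gene on the opposite strand starting within 1 kb upstream, beside 10.3% of all protein-coding genes with a start. The median distance between these starts was 206 bp. The partner also needed a known start, so a member facing a gene without one was counted as having no partner. MRPL43 and MRPL47 were counted without a partner, although ends of TWNK and NDUFB5 lay near their summits. The count of 18 may therefore be too low, and the comparisons with and without a partner rest on this rule. All 18 had a peak in both lists, with a median percentile of 66.9, and 48 of the 51 members without such a partner had one, with a median percentile of 57.3. The quartiles overlapped (49.9 and 86.4 with a partner, 39.0 and 73.5 without). Having a partner also went with a peak among all protein-coding genes, where 86.0% of 1630 such genes had a peak in both lists, beside 52.5% of all genes with a start. The median summit of members with a partner was 59.0 bp downstream of the start in replicate 1 and 31.5 bp upstream in replicate 2, beside 62.0 bp and 87.0 bp downstream for members without one, so the medians were close in replicate 1 and apart in replicate 2.

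At 8 members the summit was nearer to another gene in both lists, so the peak cannot be given to the member by distance. They were MRPS18B, MRPL30, MRPL18, MRPS18C, MRPL2, MRPS27, MRPS11 and MRPL43. At MRPL18 the other gene is TCP1, a subunit gene of the cytosolic chaperonin, whose end was 57 bp from the summit in replicate 1 and 88 bp in replicate 2, while the MRPL18 end was 267 and 298 bp away. At MRPL43 it is TWNK, the helicase of the mitochondrial genome, 19 bp from the summit in replicate 1 and 49 bp in replicate 2, with MRPL43 27 and 95 bp away. Across the members, 33 had an end of another protein-coding gene within 1 kb of the summit in at least 1 list. Neither count was made for other genes, so whether they are particular to the members is not known. With peaks nearer to another gene left out, 64 of 77 members kept a peak in both lists, down from 73. The share of all protein-coding genes fell from 50.0% to 43.1%. The neighbours were of mixed kinds, and the share that act in mitochondria was not counted. NDUFS6 beside MRPL36 and NDUFB5 beside MRPL47 encode complex I subunits, and SARS2 beside MRPS12 encodes the mitochondrial seryl-tRNA synthetase. Others, such as TCP1 beside MRPL18 and PPP1R10 beside MRPS18B, have no such role named here.

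**Figure D3:**
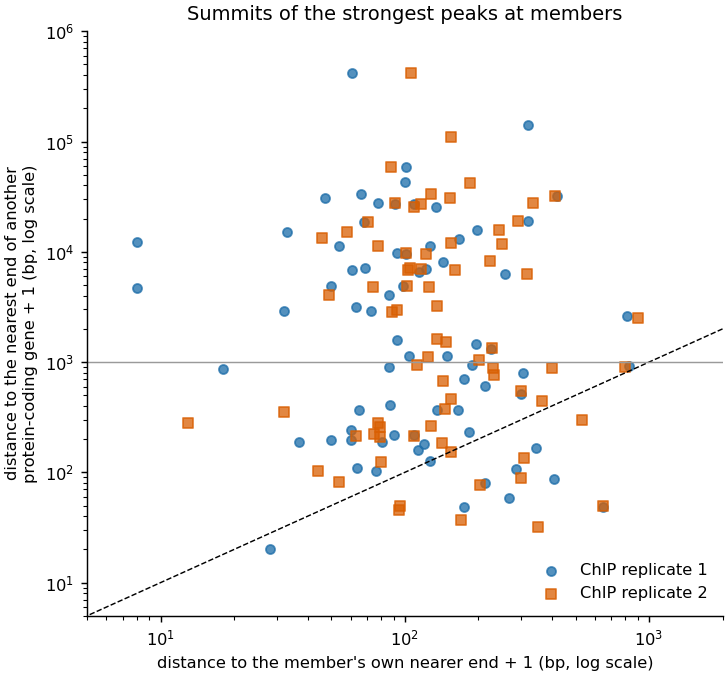
Distance from the summit of each member's strongest peak to the member's own nearer end (horizontal, plus 1 bp, log scale) and to the nearest end of any other protein-coding gene (vertical, plus 1 bp, log scale), for ChIP replicate 1 (circles) and ChIP replicate 2 (squares). Points below the dashed diagonal are nearer to the other gene, as at MRPS18B, where the summit is 645 bp from the member and 48 bp from PPP1R10 in replicate 1; the grey line marks 1 kb.

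MRPL46 and MRPS11 shared a single peak. They are the only pair of members that face each other, large-subunit protein against small-subunit protein, with starts 320 bp apart on chromosome 15. The peak had 4.97-fold in replicate 1 and 6.96-fold in replicate 2, and its summit lay 86 bp downstream of the MRPL46 start in replicate 1 and 31 bp in replicate 2, which is 406 and 351 bp upstream of MRPS11. The 250 bases before the MRPS11 start (RefSeq, GRCh38.p14, plus strand, chr15:88467458-88467707), most of the gap between the pair, are shown as the one stretch between the starts of 2 members. It held none of the 9 motifs searched. This stretch does not reach the summit of either list, which lay inside MRPL46. A motif match just after the MRPL46 start, printed further below, also lies outside it.
MRPS11: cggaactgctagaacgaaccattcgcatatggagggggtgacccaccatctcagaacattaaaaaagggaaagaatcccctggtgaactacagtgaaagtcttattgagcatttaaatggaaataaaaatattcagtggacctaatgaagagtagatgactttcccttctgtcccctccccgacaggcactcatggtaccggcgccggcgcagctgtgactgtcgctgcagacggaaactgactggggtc

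The promoter windows shared features that played no part in choosing the genes. RefSeq windows of 250 bases before to 50 after the start (GRCh38.p14) were at hand for 69 members and 15842 protein-coding genes. Median GC content was 60.3% in member windows (quartiles 56.0 and 65.7), 65.3% in windows of the 8253 other genes with peaks in both lists (quartiles 59.0 and 71.7) and 62.7% in all windows (quartiles 54.0 and 70.3). The observed to expected CpG ratio had a median of 0.879 in member windows, 0.859 in windows of those other genes and 0.763 in all windows. In these windows 9 short motifs were searched on both strands as exact strings.

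The ETS core, CCGGAAG, which ETS family factors such as GABP recognise, was in 29 of 69 member windows (42.0%), beside 14.2% of all windows and 22.0% of those of other genes with peaks in both lists. In 24 members (34.8%) a match began within 50 bases of the start, beside 8.27% of all windows and 13.1% of those of other genes with peaks. The stretches just upstream of the start are printed for 5 members, with the ETS core of either strand in capitals, because they show how near the start it falls (RefSeq, GRCh38.p14, 80 bases before the start; MRPL20, MRPL47 and MRPS31 on the minus strand, the others on the plus strand, all written along the gene). MRPL20 held 2 cores in this stretch, and at MRPL58, whose protein frees stalled mitoribosomes, the core nearly touched the start. The genomic positions are chr1:1407294-1407373, chr3:179604639-179604718, chr13:40771191-40771270, chr20:3045972-3046051 and chr17:75012590-75012669, in the order below.
MRPL20: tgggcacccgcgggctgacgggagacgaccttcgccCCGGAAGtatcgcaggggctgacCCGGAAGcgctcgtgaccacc
MRPL47: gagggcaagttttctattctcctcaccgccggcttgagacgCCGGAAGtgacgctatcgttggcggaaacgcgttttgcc
MRPS31: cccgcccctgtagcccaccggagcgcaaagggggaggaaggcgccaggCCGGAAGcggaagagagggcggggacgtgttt
MRPS26: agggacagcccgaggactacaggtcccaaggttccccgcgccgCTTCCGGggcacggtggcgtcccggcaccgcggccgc
MRPL58: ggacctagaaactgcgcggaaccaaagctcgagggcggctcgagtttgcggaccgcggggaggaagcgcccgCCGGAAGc

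The YY1 core, AGATGGC, which the zinc finger factor YY1 recognises, was in 21 member windows (30.4%), beside 6.13% of all windows and 7.97% of those of other genes with peaks. Most matches shared a direction and a place: in 15 members it lay on the gene's strand after the start, its first base between positions 8 and 37 (the start being position 1). Such a match was in 2.52% of all windows and 4.07% of those of other genes with peaks. A stretch of 27 bases around the core is printed for 5 members, with the core in capitals, since the same letters fall shortly after the start in genes at different loci (RefSeq, GRCh38.p14; MRPL46, MRPS10 and MRPL51 on the minus strand, MRPS30 and MRPL45 on the plus strand; chr15:88467361-88467387, chr6:42217833-42217859, chr12:6493222-6493248, chr5:44808953-44808979 and chr17:38297174-38297200 in the order below).
MRPL46: agaacgaaAGATGGCggcgcccgtaag
MRPS10: gaccggcaAGATGGCggcgcggacagc
MRPL51: aaggcccaAGATGGCtgtcttcgcctt
MRPS30: gcgggcaaAGATGGCggcggccaggtg
MRPL45: cgggaacaAGATGGCagcccccatacc

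**Figure D4:**
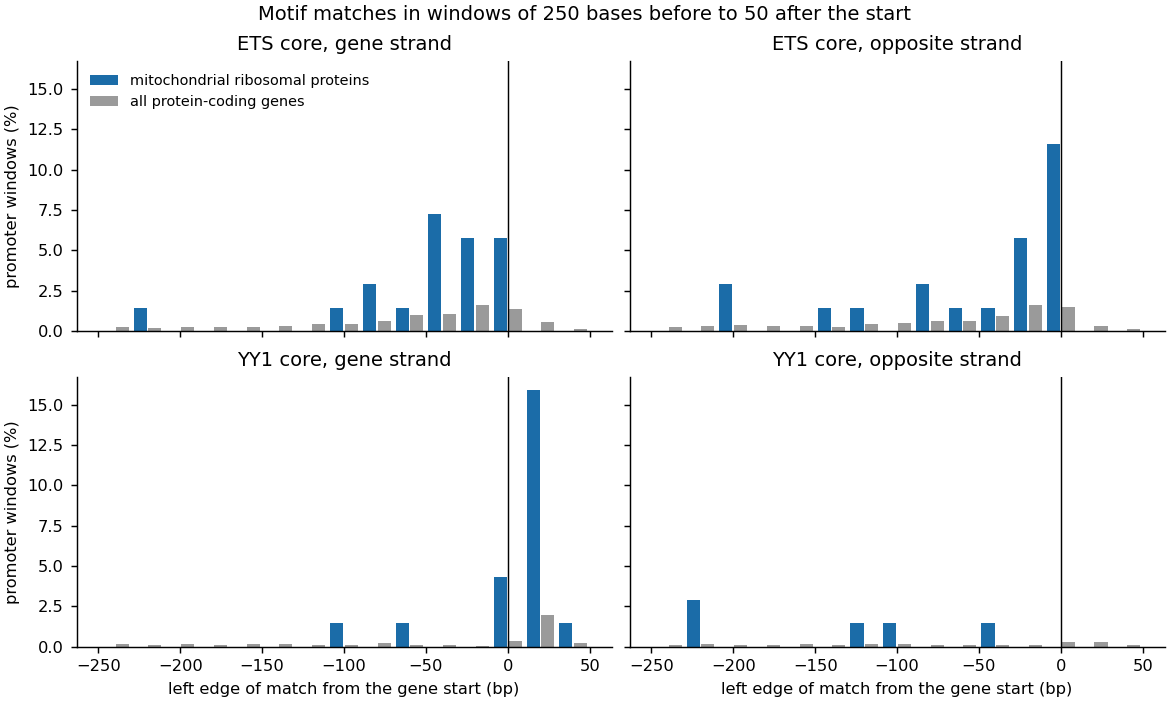
Percent of promoter windows with an ETS core (top) or YY1 core (bottom) match on the gene's strand (left) or the opposite strand (right), in bins of 20 bases by the left edge of the match, for 69 mitochondrial ribosomal protein genes (blue) and 15842 protein-coding genes (grey). ETS matches of members crowd around the start on both strands, and YY1 matches on the gene's strand crowd 10 to 30 bases after it, where 11 members have one.

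Both cores were in 8 member windows and neither in 27. Members with the ETS core had a median percentile of 64.3, and those without it 64.7. Members with the YY1 core had lower medians, with folds of 5.26 in replicate 1 and 8.23 in replicate 2, a median percentile of 45.2 and quartiles of 29.4 and 58.2. Members without the YY1 core had 7.29 in replicate 1 and 9.57 in replicate 2, a median percentile of 71.2 and quartiles of 49.5 and 84.6. The ranges of these groups overlapped, with MRPS18B, the strongest member, and MRPL45, the weakest, both in the group with the core, and no test was made of the difference.

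The interferon-stimulated response element core, taken as GAAA, any 2 bases and GAAA again, was in 2 of 69 member windows (2.90%), beside 3.18% of all windows and 2.96% of those of other genes with peaks. These were MRPL50 and MRPL36. They are printed because this element is the sequence that IRF factors are known to bind, with the match in capitals (RefSeq, GRCh38.p14, minus strand, chr9:101398619-101398718 and chr5:1800008-1800087). MRPL50 had a modest peak of 4.11-fold in replicate 1 and 8.60-fold in replicate 2, with a summit 134 bp downstream of the start in replicate 1 and 145 bp in replicate 2. MRPL36, a very small bacterial-type large-subunit protein, had a peak of 5.57-fold in replicate 1 and 6.85-fold in replicate 2, with its summit 190 bp upstream of the start in replicate 1 and 184 bp in replicate 2. A stronger MRPL36 peak, 6.60-fold in replicate 1 and 11.5-fold in replicate 2, stood further upstream, beside NDUFS6.
MRPL50: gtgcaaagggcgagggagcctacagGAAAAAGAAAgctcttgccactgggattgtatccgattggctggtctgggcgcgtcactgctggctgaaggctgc
MRPL36: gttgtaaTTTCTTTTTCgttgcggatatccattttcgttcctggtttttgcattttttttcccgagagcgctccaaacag

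The NRF1 core, GCATGCG, which the nuclear respiratory factor NRF1 recognises, was in 7 member windows (10.1%), beside 5.14% of all windows and 7.37% of those of other genes with peaks. It is printed for 3 members because this factor is known for nuclear genes of mitochondria; in 2 of them matches of both strands overlap, so 8 bases stand in capitals (RefSeq, GRCh38.p14; MRPS18B and MRPL22 on the plus strand and MRPL17 on the minus strand; chr6:30617780-30617839, chr11:6683341-6683440 and chr5:154941013-154941072 in the order below).
MRPS18B: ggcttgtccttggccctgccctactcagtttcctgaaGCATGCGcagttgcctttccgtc
MRPL17: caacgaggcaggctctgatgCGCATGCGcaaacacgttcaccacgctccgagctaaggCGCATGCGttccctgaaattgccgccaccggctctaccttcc
MRPL22: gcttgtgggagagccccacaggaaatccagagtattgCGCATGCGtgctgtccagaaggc

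The remaining motifs had member shares near or below those of all windows. The SP1 box, GGGCGG, was in 42 member windows (60.9%), beside 58.5% of all windows and 72.1% of those of other genes with peaks. The NF-Y box, CCAAT, was in 20 (29.0%, beside 36.4%), and the partial CRE site, TGACGT, in 5 (7.25%, beside 9.67%). The E-box, CACGTG, was in 6 (8.70%, beside 8.88%), and the TATA box, TATAAA, in 2 (2.90%, beside 9.63%). A match is only a string of letters, and none of these counts shows which factor was bound.

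The rest of the mitochondrial translation machinery was much like the members in how often a peak was found. The mitoribosomal proteins with other symbols had a peak at an end in both lists at 4 of 5 genes, beside 50.0% of all protein-coding genes. PTCD3, a pentatricopeptide repeat protein of the small subunit, had 7.55-fold in replicate 1 and 11.3-fold in replicate 2. GADD45GIP1, a large-subunit protein near the tunnel exit, had 5.87-fold in replicate 1 and 10.6-fold in replicate 2, and AURKAIP1, of the small subunit, had 5.83-fold in replicate 1 and 9.28-fold in replicate 2. The exception was DAP3, the GTP-binding protein of the small subunit, where the nearest peak lay inside the gene span, 1243 bp from an end in replicate 1 and 1228 bp in replicate 2. That peak had 11.8-fold in replicate 1 and 11.1-fold in replicate 2 and stood 100 bp from the table start in replicate 1 and 85 bp in replicate 2.

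All 12 mitochondrial translation factors, all 24 genes of mitoribosome assembly and mitochondrial ribosomal RNA modification and all 13 genes of mitochondrial transcription and RNA handling had a peak in both lists, beside 50.0% of all protein-coding genes. Their median percentiles were 65.2, 53.0 and 59.5 in that order, beside 50.0 for all protein-coding genes with peaks in both lists. MTRFR, a release factor relative that rescues stalled mitoribosomes, had 29.5-fold in replicate 1 and 24-fold in replicate 2, and MTIF3, an initiation factor, 9.72-fold and 14.7-fold. In the assembly list NGRN, which binds the large ribosomal RNA, had 16-fold in replicate 1 and 15.1-fold in replicate 2, and MTG2, an assembly GTPase, 10.2-fold and 13.99-fold. In the transcription and RNA list the strongest were SLIRP, the partner of LRPPRC in messenger RNA stability (7.22-fold and 17.7-fold), and ELAC2, a transfer RNA processing nuclease (7.73-fold and 9.83-fold). POLRMT, the mitochondrial RNA polymerase, was named after its values were seen, as the weakest of that list, with 2.82-fold in replicate 1 and 2.73-fold in replicate 2.

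The cytosolic ribosome stood apart in height and not in how often a peak was found. The mitochondrial ribosomal protein genes had a peak in both lists in 94.8% and the cytosolic ribosomal protein genes in 94.3% (83 of 88). The median folds were 6.43 in replicate 1 and 8.98 in replicate 2 for the mitochondrial set and 12.3 in replicate 1 and 20.1 in replicate 2 for the cytosolic set. The median percentile was 64.1 for the mitochondrial and 94.9 for the cytosolic set, and the interquartile ranges, 44.6 to 79.0 and 89.4 to 97.9, did not overlap. Of the mitochondrial set 5 of 73 genes were in the strongest 10% of all genes, and of the cytosolic set 59 of 83. The leading cytosolic genes were RPLP1 (30.4-fold in replicate 1, 41.9-fold in replicate 2), RPL3 (21.3-fold and 75.5-fold) and RPS4X (20.3-fold and 39.2-fold). Nuclear oxidative phosphorylation genes, which include the complex subunits and their assembly factors taken by symbol prefix, had a peak in both lists at 81 of 97 genes (83.5%), with a median percentile of 55.4 and quartiles of 41.9 and 76.4, overlapping those of the mitochondrial ribosomal protein genes. The strongest of them were NDUFA7 (16.2-fold in replicate 1, 25.8-fold in replicate 2), ATP5F1B (10.8-fold and 24.3-fold) and NDUFB11 (13.3-fold and 15.8-fold). The sets are not wholly separate: NDUFA7 shares its peak with the cytosolic gene RPS28, MRPL49 shares its peak with the cytosolic gene FAU, and MRPL36 and MRPL47 share theirs with NDUFS6 and NDUFB5.

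**Figure D5:**
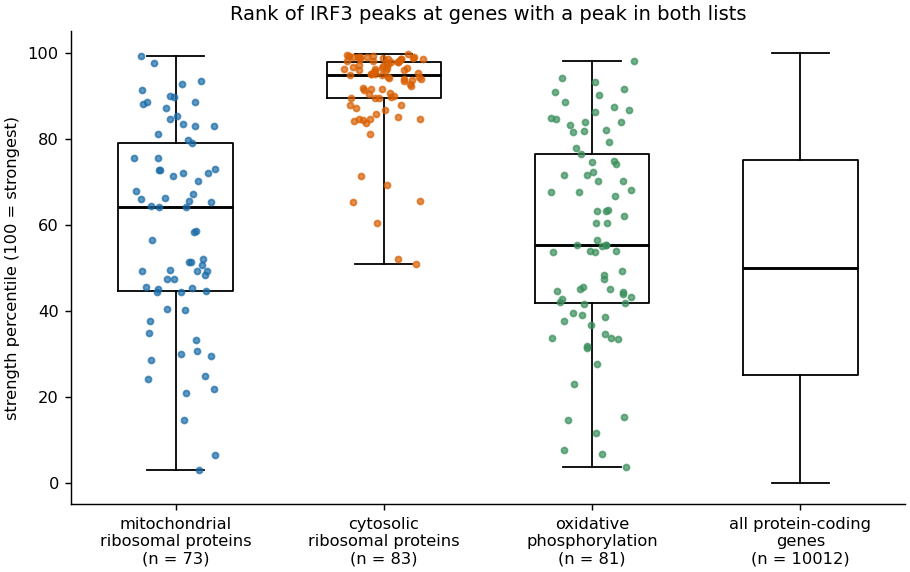
Strength percentile (100 is the strongest) of genes with a peak in both lists, for mitochondrial ribosomal protein genes, cytosolic ribosomal protein genes, nuclear oxidative phosphorylation genes and all 10012 protein-coding genes. Boxes give the median and quartiles, whiskers the full range and points single genes; the median is 64.1 for the mitochondrial ribosomal protein genes and 94.9 for the cytosolic ones.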

How the data were processed

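IRF3 ChIP-seq peak lists of 2 ChIP libraries were used; the input libraries served as the background of the peak calls. Per the file headers, the authors called peaks with MACS2 2.1.2 (2.1.1 in the submitters' processing notes) for each library alone, at a q-value cutoff of 0.05. Further tools in the submitters' processing notes, given there with no role, are deepTools 3.3.1, SAMtools 1.2, Picard 2.6.0 and BWA 0.7.15, and the build is GRCh38. The deposited fold enrichment is a ratio of ChIP to local input, the deposited pileup is a signal of stacked fragments, and the deposited −log10 p and −log10 q stood under damaged column names and were told apart by column order. The authors' values described, ranked and filtered peaks within a list. Fold enrichment also depends on antibody recovery and input depth.

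Genes, spans, synonyms and promoter windows came from RefSeq tables of GRCh38.p14; 69 of 77 members matched a window. A gene had a peak where a summit lay within 1 kb of either span end. Reads were not used here, so no gene's coverage outside called peaks was seen. Peak assignment was tested on simulated data. Python 3.11.15, numpy 2.4.6, pandas 2.3.3 and matplotlib 3.10.9 were used, with no statistical test.

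The members and gene lists were chosen with earlier results of these data known. Named genes were the 12 strongest members, the 5 weakest with peaks, members without a peak, those just inside and outside 1 kb, 14 members named in advance and up to 3 of the strongest genes of each other list; further genes were named after their values were seen. Alternatives covered distance, peak strength, overlap, gene end, ownership of the peak, single replicates and the motif window.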

Additional observations from a re-analysis of the deposited data

How the results depend on the processing

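Of 58 alternative settings, 48 left the value within its tolerance, which was 1.5 times for a count and the spread between the replicates for a median. These tolerances were wide. A count of 56 passed beside 73, and the tolerance for the fold medians, 1.81, came from the difference in scale between the lists. The number that passed therefore says little about stability. The count of 73 members with peaks in both lists ran from 56 (fold enrichment of 5 or more) to 75 (2 kb or 5 kb), was 64 without peaks nearer to another gene, and was 73 from either replicate alone. Using a single replicate, the median percentile ranged from 54.4 to 62.7, in place of 64.1, and the median summit position from 60.0 to 77.0 bp downstream. Motif counts fell in smaller searches. With the gene's strand only, the ETS core was in 16 of 69 member windows (8.05% of all windows) and the SP1 box in 24 (40.5%). On that strand the NF-Y box was in 10 (21.1%), the partial CRE site in 3 (6.52%), the ISRE core in 1 (1.51%) and the TATA box in 1 (6.91%). With the window before the start only, the YY1 core was in 6 (3.07%) and the partial CRE site in 2 (8.67%). These searches cover fewer bases or strands. No paired analysis was possible because the data are 2 peak lists of a single condition and no result comes from a test. Depth limits weak peaks: a gene without a called peak may hold signal under the cutoff.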
